A study of Bos taurus with 8 samples.

Results

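The matrix metalloproteinases MMP2, MMP9, MMP11 and MMP14 and the tissue inhibitors of metalloproteinases TIMP1, TIMP2 and TIMP3 were followed in bovine granulosa cells at 8, 11 and 14 months of age. Every array probe whose platform gene symbol was one of these 7 names was taken. This gave 8 of the 43794 probes on the array, a pair for TIMP1 and a single probe for each of the other genes. Of these, 7 probes of 6 genes were bright enough to be tested, among 22675 such probes in all. The probe of TIMP3 was not.

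Matrix metalloproteinases are zinc-dependent enzymes that cleave collagens and other proteins outside the cell. Most are made as inactive proenzymes, and TIMPs bind the active enzymes and block them. In the ovary, both families are known for the remodelling of the follicle wall and its basement membrane as follicles grow, ovulate or regress.

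All samples came from 4 Holstein heifers, each sampled at all 3 ages and thus compared with itself. At every age the heifers received progesterone (CIDR), had the dominant follicle removed and were stimulated with repeated FSH before follicles were aspirated by needle, so that no group was left unstimulated. RNA was extracted from pools and amplified, per the labels, and each of 8 dual-colour arrays set 1 heifer at 8 or 11 months against the same heifer at 14 months. Both comparisons therefore share the 14-month age of the same animals as their control. Dyes were swapped between animals, with the younger age in Cy5 for heifers 1 and 2 and in Cy3 for the other two. Every sample is labelled as granulosa cells, whereas the study design describes arrays of blastocysts, and this conflict bears on every value.

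Median probe intensity lay between 220 and 329 per array and channel, and between 43.2% and 57.3% of probes exceeded the background limit, which is the mean plus 2 SD of the negative control spots. All 10 granulosa markers examined, among them FSHR, CYP19A1 and AMH, passed the brightness filter. The filter asks for 3 heifers at any age, so a gene that passes need not be above background at every age. FOXL2 passed only through 8 months, with 3 heifers above background there, 1 at 11 and 2 at 14 months. Against 14 months, 3 of the 10 markers were higher and 7 lower at 8 months as fitted. At 11 months 2 were higher and 8 lower, with 0 called at either age. The median log2 ratio of this list in heifers 1 to 4 was -0.11, -0.84, -0.29 and -0.11 at 8 months. At 11 months it was 0.22, 0.09, 0.07 and -1.29. The part of granulosa content in the member values was not tested. Genes listed as markers of other cells were read as well, and whether those cells were present was not tested. Transcripts of 8 of 10 general epithelial markers, 10 of 10 squamous epithelial markers and 9 of 10 leukocyte markers passed the same filter. So did 7 of 10 genes of the motile cilia list, which counts OVGP1, an oviduct glycoprotein gene. The filter was also passed by 8 of 9 stromal and 4 of 6 endothelial markers. Of the 4 theca markers INSL3 and NR2F2 passed and CYP17A1 and LHCGR did not, and 1 of 7 oocyte markers passed.

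The members differed widely in signal. TIMP2, the inhibitor that also links pro-MMP2 to MMP14 at the cell surface, was 17.4 to 63.3 times as bright as the background limit in all 16 channels (8 arrays with 2 channels each). MMP2 exceeded the limit in 16 channels and MMP14 in 16, but MMP14 at 14 months stood at only 1.02 to 1.35 times the limit. MMP9 exceeded it in 11 channels and MMP11 in 15. The brighter TIMP1 probe did so in 16 channels, at 1.17 to 110 times the limit, and the dimmer TIMP1 probe in 13. Probe brightness depends on the probe sequence as well as on the transcript, so these values rank no gene against another.

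**Figure D1:**
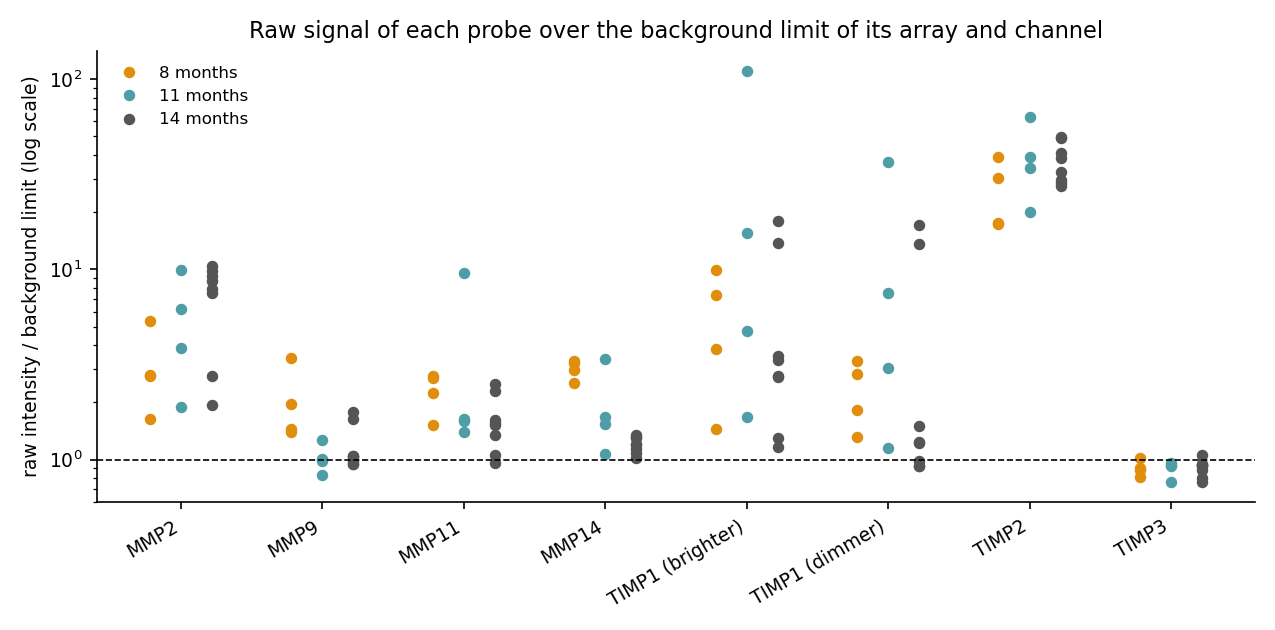
Raw intensity of each probe divided by the background limit of its array and channel (log scale), with 1 point per channel coloured by age. TIMP2 lies at 17.4 or more in every channel, TIMP1 spans from 1.17 to 110 at its brighter probe, and TIMP3 stays between 0.765 and 1.06.

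MMP14 was the member that rose at 8 months. It encodes a metalloproteinase anchored in the cell membrane, which cleaves collagens and activates pro-MMP2 at the cell surface. The log2 ratios of 8 over 14 months were 1.99, 1.04, 1.53 and 1.46 in heifers 1 to 4. All 4 heifers were higher at 8 months, with means of 1.51 for the arrays with the younger age in Cy5 and 1.5 for those in Cy3. The fitted change was 1.51 ± 0.26 (SE, n = 4; 95% interval 0.91 to 2.11), or 2.84-fold, with an adjusted p of 0.0246 in limma. Of the 7 member probes, MMP14 was the only one called in this comparison, in which 3.87% of all kept probes were called and 3.26% were called higher at 8 months. Before adjustment, 3 of the 7 probes (MMP2, MMP9 and MMP14) had a p under 0.05, against 24.8% of kept probes. In RNA from a mixed sample, fewer cells of a type and less RNA per cell cannot be told apart, and this holds for every value here.

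The channel levels show where the MMP14 ratio came from. On the normalized log2 scale, MMP14 stood at 9.92, 9.13, 9.70 and 9.78 in heifers 1 to 4 at 8 months. At 14 months, with both arrays of a heifer averaged, it stood at 7.99, 7.96, 7.92 and 8.18. The ages did not overlap, as was the case for 12.4% of kept probes, and the 14-month levels lay within a narrow band close to background. The offset of 50 added to all intensities compresses the ratios of probes this dim.

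The 8-month rise of MMP14 passed the threshold in 14 of 17 alternative settings and kept its direction in all 17. It fell short with mean pixel intensities (1.05, adjusted p = 0.0577), without heifer 3 (1.40, adjusted p = 0.217) and without heifer 4 (1.42, adjusted p = 0.148).

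**Figure D2:**
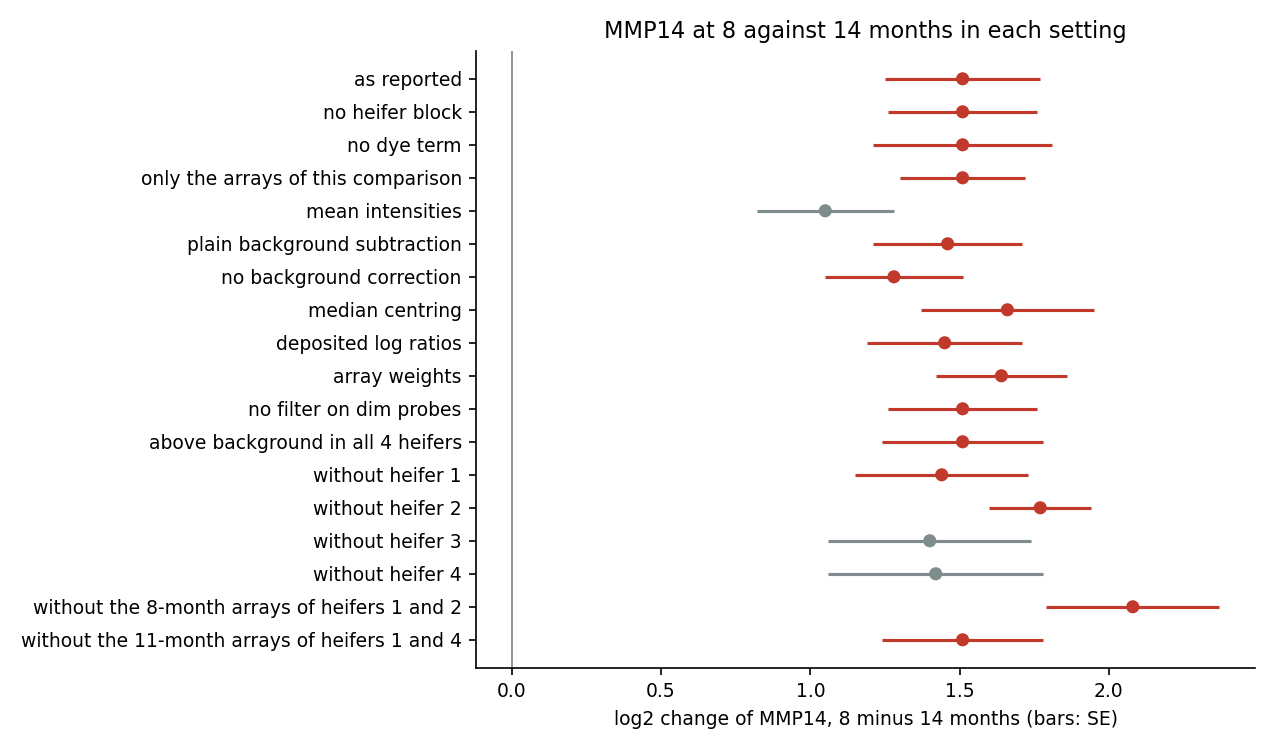
Fitted log2 change of MMP14 at 8 against 14 months (x axis, bars are SE) as reported and in each alternative setting. Every estimate lies above 0, from 1.05 with mean intensities to 2.08 without the 8-month arrays of heifers 1 and 2.

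At 11 months MMP14 differed between heifers. Its log2 ratios of 11 over 14 months were 0.83, 1.66, 0.02 and 0.14, so that heifers 1 and 2 were higher than at 14 months and heifers 3 and 4 were near 0. This division coincides with the dyes, with a mean of 1.25 where the younger age was in Cy5 and 0.08 where it was in Cy3. Heifer and dye cannot be told apart within this comparison. In heifer 3 both channels were close to background, at 1.07 (11 months) and 1.02 (14 months) times the limit. The fitted change was 0.66 ± 0.26 (SE, n = 4), with an unadjusted p of 0.0338 and an adjusted p of 0.661 in limma, and it did not pass the threshold. No probe did so at 11 months (0% of 22675, lowest adjusted p 0.661), while 7.51% had an unadjusted p under 0.05. The 11-month levels of 8.87, 9.5, 7.69 and 8.19 overlapped with those at both other ages. Between 11 and 14 months the levels of 0 of 7 member probes were apart, against 2.77% of kept probes.

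Transcripts listed as epithelial markers moved in the same direction as MMP14 at 8 months. All 8 measured epithelial markers were higher as fitted and 3 of them passed the test (KRT7, CLDN4 and MUC1). All 10 squamous markers were higher and 7 passed (KRT4, KRT5, KRT6A, KRT78, SFN, PI3 and PPL). KRT5 passed the brightness filter only through 8 months, where it was high, with 1 heifer above background at 11 and 1 at 14 months. CNFN stood at only 0.05. The summed level of the epithelial list was 16.56 to 17.54 (log2) at 8 months against 15.29 to 16.45 at 14 months, and that of the squamous list 14.48 to 17.33 against 11.88 to 13.11. The epithelial marker CDH1 was not above background in any sample. Per heifer, the median log2 ratio of the squamous list at 8 months was 4.44, 0.90, 2.40 and 3.32, with heifer 2 lowest, as for MMP14. That of the epithelial list was 3.19, 1.98, 1.79 and 0.73, with heifer 4 lowest, unlike MMP14. At 11 months the squamous median was 0.24, -0.06, 0.07 and 1.05, and the epithelial median 0.19, 0.06, 0.12 and 2.02, both highest in heifer 4, where MMP14 stood at 0.14. Their part in the MMP14 result was not tested.

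At 8 months the motile cilia list was high in heifers 1 and 2, with median log2 ratios of 2.91 and 3.72. In heifers 3 and 4 its medians were 0.23 and 0.10. This list counts OVGP1, an oviduct glycoprotein gene that is not a cilia gene. OVGP1 had log2 ratios of 6.08, 5.13, 0.41 and 0.10 in heifers 1 to 4 at 8 months. The summed log2 level of the list was 10.58 to 16.38 at 8 months and 10.33 to 11.58 at 14 months. All 7 measured genes of the list were higher as fitted with 0 called. The log2 ratios of MMP14 at 8 months in heifers 1 to 4 were 1.99, 1.04, 1.53 and 1.46. Without the 8-month arrays of heifers 1 and 2, the fitted change of MMP14 was 2.08 (adjusted p = 0.0394 in limma). That fit takes its dye term from the 11-month arrays alone, where heifer and dye cannot be told apart. Its estimate lies above both remaining 8-month ratios, 1.53 and 1.46, so it is no measure of a larger rise. The part of the genes of the cilia list in the MMP14 result was not tested. In the stromal list, 5 of 8 measured genes were higher at 8 months and THY1, a surface glycoprotein of fibroblasts, was called at 1.12 (adjusted p = 0.0384). LUM (-0.87), COL1A1 (-0.48) and ACTA2 (-0.21) were lower, and the median of the list was 0.14.

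MMP2, the gelatinase that cleaves denatured collagen and type IV collagen and is activated by MMP14, went the other way by its values. Its log2 ratios of 8 over 14 months were -0.05, -0.75, -1.86 and -1.69 in heifers 1 to 4. All 4 were below 0, a pattern that 15.9% of kept probes showed, but heifer 1 was close to 0 and the Cy3 arrays were lower (mean -1.78) than the Cy5 arrays (mean -0.40). The fitted change of -1.09 ± 0.39 (SE, n = 4; 95% interval -1.98 to -0.20) had an unadjusted p of 0.022 and an adjusted p of 0.135 in limma. It therefore did not pass, although it did when only the 8-month arrays were fitted (adjusted p = 0.0162) and with array weights (-1.29, adjusted p = 0.0224).

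At 11 months the log2 ratios of MMP2 were -0.21, -1.88, -0.54 and 0.14, for a fitted change of -0.62 ± 0.39 (SE, n = 4; adjusted p = 0.673 in limma). Heifer 2 alone was below -1, and without it the fitted change was -0.06. The MMP2 levels at 14 months were 9.05 in heifer 1 and 11.29, 11.23 and 11.20 in heifers 2 to 4. Heifer 1 thus lay more than 2 log2 units below the others at 14 months, on both of its arrays (8.74 and 9.36). At 8 months the level was 8.69, 10.40, 9.49 and 9.69, again with heifer 1 lowest, and the ages overlapped.

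MMP14 and MMP2 thus took opposite values against 14 months in most arrays. The log2 ratio of MMP14 lay above that of MMP2 in 8 of 8 arrays, but by only 0.01 in heifer 4 at 11 months, where both read 0.14. It lay above that of TIMP2 in 7 of 8 arrays, including all 4 at 8 months, and the ratio of MMP2 lay above that of TIMP2 in 1 of 8. These are counts over arrays that share animals, and no test was made of them.

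TIMP2 did not pass the test at either age. Its log2 ratios of 8 over 14 months were 0.14, -0.50, -0.61 and -0.65, with heifer 1 slightly above 0 and the other heifers below. At 11 months they were -0.11, 0.68, 0.18 and -0.71, with both signs present. The fitted changes were -0.40 ± 0.22 (SE, n = 4; 95% interval -0.91 to 0.10; adjusted p = 0.294 in limma) and 0.01 ± 0.22 (95% interval -0.49 to 0.51; adjusted p = 0.993). Its levels of 12.34 to 13.61 at 8 months, 12.38 to 13.90 at 11 months and 13.04 to 13.52 at 14 months overlapped.

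**Figure D3:**
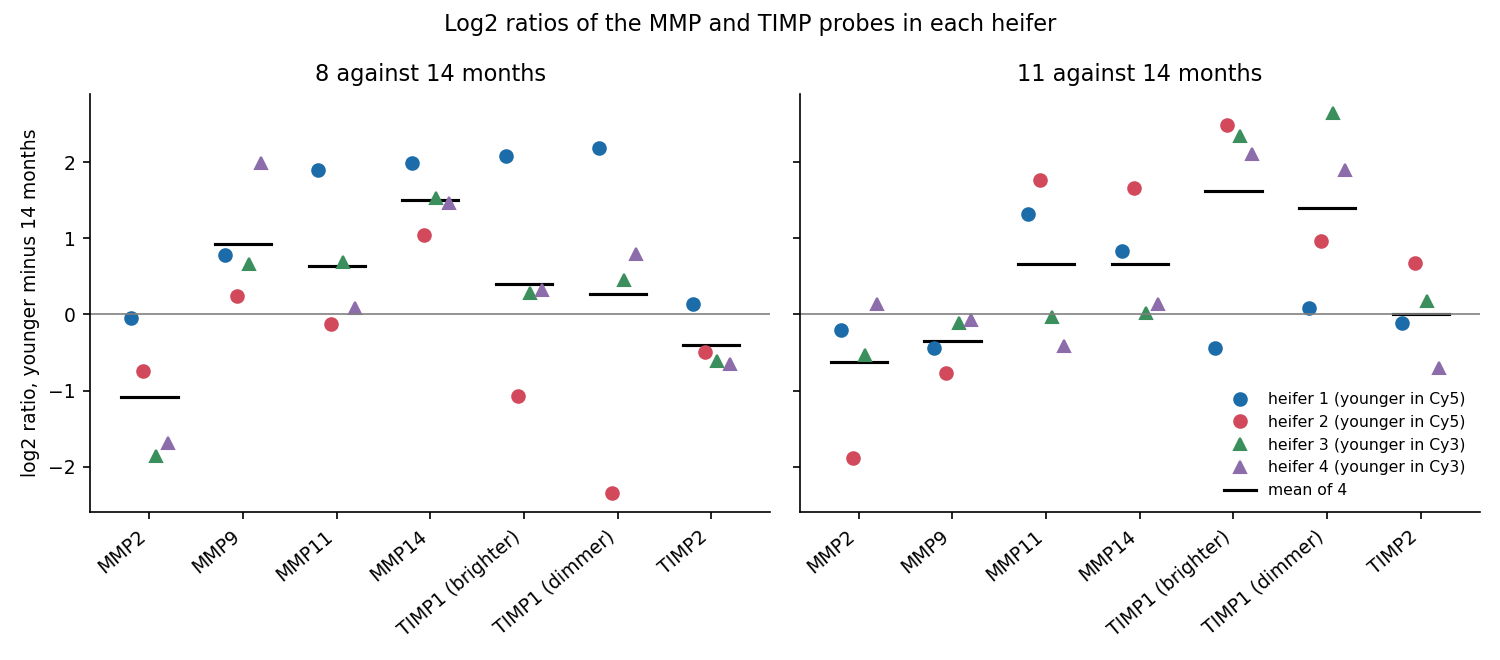
Log2 ratio of the younger age over 14 months for each tested probe (y axis) at 8 months (left) and 11 months (right), with 1 point per heifer, shaped by the dye of the younger age, and a line at the mean of 4. MMP14 lies between 1.04 and 1.99 in the left panel and between 0.02 and 1.66 in the right panel, and TIMP1 covers both sides of 0.

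MMP9, the second gelatinase, had values above those at 14 months in every heifer at 8 months, without passing the test, and was too close to background at 11 months for a direction. Its log2 ratios of 8 over 14 months were 0.78, 0.24, 0.66 and 1.99, and those of 11 over 14 months were -0.44, -0.77, -0.11 and -0.08. Heifer 4 stood highest in the first series. In the second, heifer 2 alone was above background in both channels, and heifer 4 was below it in both. Opposite signs of this kind in all 4 heifers occurred in 31 kept probes, or 0.137%. For MMP9 this share carries little weight, as its 11-month signs were read close to background. The fitted change at 8 months was 0.92 ± 0.23 (SE, n = 4; 95% interval 0.40 to 1.44; adjusted p = 0.0616 in limma), just short of the threshold, which it passed with median centring (1.04, adjusted p = 0.0289) and with array weights (0.93, adjusted p = 0.0332). At 11 months it was -0.35 ± 0.23 (adjusted p = 0.676), with all 4 heifers below 0, as for 6.68% of kept probes.

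MMP9 was dim at the older ages. It was above background in 4 heifers at 8 months, in 2 at 11 months and in 3 at 14 months. Its levels were 8.36, 8.69, 8.21 and 10.01 at 8 months and 7.11, 7.85, 7.54 and 7.36 at 11 months, which did not overlap. The 14-month levels of 7.56, 8.54, 7.60 and 7.73 overlapped with both. In the contrast of 8 with 11 months, which sit on different arrays, MMP9 differed by 1.26 ± 0.30 (SE, n = 4; 95% interval 0.59 to 1.94), higher at 8 months in 4 of 4 heifers. Its unadjusted p was 0.00223 and its adjusted p 0.727 in limma. No probe was called in that contrast (0% of 22675, lowest adjusted p 0.154), 5.33% had an unadjusted p under 0.05, and the levels of 3.1% did not overlap.

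MMP9 is also a product of neutrophils and macrophages, and leukocyte markers are given beside it. Of the 9 measured, 3 were higher and 6 lower at 8 months as fitted, with 0 called and a median of -0.67, and at 11 months 2 were higher and 7 lower. Their summed log2 level was 13.73 to 15.07 at 8 months, 13.15 to 14.19 at 11 months and 13.81 to 15.50 at 14 months. PTPRC, the surface phosphatase of all leukocytes, had log2 ratios of -0.45, -0.97, -2.96 and -2.24 at 8 months, and CD68, a macrophage marker, -0.21, -1.94, -0.84 and -1.42. Both were below 0 in every heifer, as was the T cell gene CD3E, and none of these passed (adjusted p = 0.0950, 0.0628 and 0.0850 in limma). S100A9, a calcium-binding protein abundant in neutrophils and also made by squamous epithelium, had log2 ratios of 5.30, -1.10, 3.68 and 4.17 at 8 months, with heifer 2 opposite to the others. It was at 0.04, -0.98, 0.11 and 0.84 at 11 months. The integrin gene ITGAM was not above background in any sample. Their part in the MMP9 values was not tested.

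TIMP1, the secreted inhibitor that also binds pro-MMP9, had the largest spread between heifers. At its brighter probe the log2 ratios of 11 over 14 months were -0.44, 2.49, 2.34 and 2.11. Heifers 2 to 4 were more than 2 log2 units higher at 11 months and heifer 1 was lower. The fitted change of 1.63 ± 0.61 (SE, n = 4; 95% interval 0.24 to 3.01), or 3.09-fold, had an unadjusted p of 0.0261 and an adjusted p of 0.661 in limma. The dimmer probe read 0.08, 0.96, 2.65 and 1.89, all above 0, with a fitted change of 1.40 ± 0.62 (adjusted p = 0.661 in limma). On the 11-month array of heifer 4, its 14-month channel was below background, at 0.984 times the limit. With both probes above 0.05 after adjustment, the 11-month values are not called, and the intervals reach from near 0 to a several-fold difference.

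At 8 months TIMP1 had no common direction. The brighter probe read 2.08, -1.07, 0.28 and 0.32 and the dimmer probe 2.19, -2.35, 0.45 and 0.79 in heifers 1 to 4. Heifers 1 and 2 thus lay on opposite sides of 0 by both probes. At the dimmer probe, the 14-month channels of heifers 1 and 4 were below background on these arrays, at 0.922 and 0.927 times the limit. The fitted changes were 0.40 ± 0.61 (SE, n = 4; 95% interval -0.98 to 1.79; adjusted p = 0.721 in limma) and 0.27 ± 0.62 (adjusted p = 0.826), and both became negative without heifer 1 (-0.25 and -0.73). The probes had the same sign in 7 of 8 arrays and were furthest apart in heifer 2, by 1.28 at 8 months and 1.53 at 11 months.

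The TIMP1 levels were spread widely over the heifers at each age. At 14 months the brighter probe stood at 9.51, 12.13, 9.65 and 8.04 (log2), with heifer 2 highest, and the separate readings of each heifer on its arrays differed by only 0.30, 0.20, 0.08 and 0.18. At 11 months it stood at 8.92, 14.72, 11.96 and 10.07, and at 8 months at 11.74, 10.96, 9.98 and 8.45. The highest level was again in heifer 2 at 11 months, and the 3 ages overlapped. With 1 sample per heifer and age, differences between animals and between samplings cannot be told apart.

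**Figure D4:**
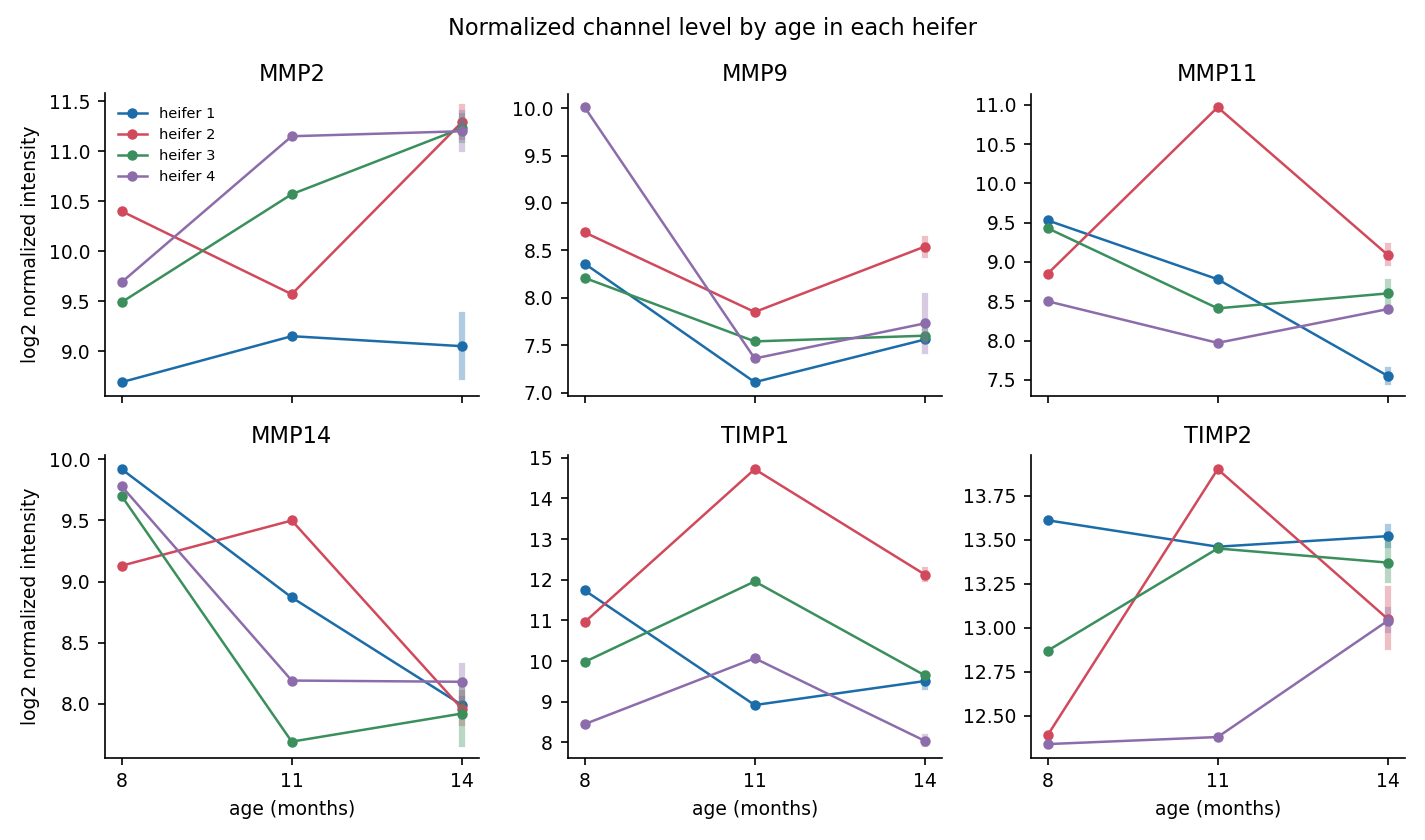
Normalized log2 channel level of each tested gene (y axis) by age in months (x axis), with 1 line per heifer and the 14-month value averaged over both arrays of a heifer, whose separate readings the pale bars join. MMP14 separates 8 months (9.13 to 9.92) from 14 months (7.92 to 8.18), and TIMP1 at 11 months spreads from 8.92 to 14.72.

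MMP11, known as stromelysin-3 and activated inside the cell by furin, had scattered values that did not pass the test. Its log2 ratios were 1.89, -0.13, 0.69 and 0.08 at 8 months and 1.32, 1.77, -0.04 and -0.41 at 11 months. Heifer 1 was high at both ages, and heifer 2 at 11 months only. The 14-month signal of heifer 1 was close to background, at 1.06 and 0.963 times the limit on its arrays. The fitted changes were 0.63 ± 0.35 (SE, n = 4; adjusted p = 0.296 in limma) and 0.66 ± 0.35 (adjusted p = 0.663). At 11 months the Cy5 arrays averaged 1.54 and the Cy3 arrays -0.23, and the dye term of MMP11 over all arrays was 0.57, without passing the test. The 8-month change depended on single heifers. It was 1.14 without heifer 2, which passed (adjusted p = 0.0283), 0.34 without heifer 1 (adjusted p = 0.614) and 0.39 without heifer 3 (adjusted p = 0.701).

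TIMP3, the inhibitor that binds to the matrix and also blocks ADAM17, exceeded the background limit in 2 of 16 channels, with raw intensities of 208 to 330. Its level was therefore not measured at any age, and its log2 ratios, between -0.51 and 0.52, carry no direction. A dim probe does not show that the transcript is absent.

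Across the 6 measured member genes, the median fitted change was 0.52 at 8 months, with 4 higher and 2 lower, against 0.01 over 10201 genes. At 11 months it was 0.33, with 4 higher and 2 lower, against -0.01 over all genes. Between 8 and 11 months it was -0.22, with 2 higher and 4 lower, against 0.03. MMP9 and MMP14 were higher in all 4 heifers at 8 months, where 15.6% of kept probes were, and MMP14 and the dimmer TIMP1 probe at 11 months, where 6.33% were. Those 11-month values include 0.02 for MMP14 in heifer 3 and 0.08 for the dimmer TIMP1 probe in heifer 1. The brighter TIMP1 probe read -0.44 in heifer 1. The median hides opposite values of MMP14 and MMP2.

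In the contrast of 8 with 11 months, 0 of 7 member probes were called. MMP14 differed by 0.84 ± 0.34 (SE, n = 4; adjusted p = 0.918 in limma), higher at 8 months in 3 of 4 heifers. TIMP1 differed by -1.22 ± 0.79 (95% interval -3.02 to 0.57; adjusted p = 0.987), and MMP2, MMP11 and TIMP2 by -0.46, -0.02 and -0.41. The MMP14 changes against 14 months at 8 and at 11 months were thus not shown to differ.

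Of 20 further MMP and TIMP genes, 15 had a probe and 7 were measured, and 0 were called in any comparison, with 1 at an unadjusted p under 0.05 at 8 months. The interstitial and macrophage enzymes MMP1, MMP3, MMP12 and MMP13 were among those too dim to test. MMP17, a membrane enzyme anchored by a glycolipid, stood at -1.35 ± 0.51 (SE, n = 4; adjusted p = 0.152 in limma) at 8 months and was below 0 in all 4 heifers, at -0.58, -1.97, -1.51 and -1.35. MMP7, an epithelial enzyme also called matrilysin, stood at 1.05 (adjusted p = 0.323), with 1.61, 2.26, 0.75 and -0.41. At 11 months it read 0.07, -0.29, 0.31 and 2.97. The medians of the motile cilia list, OVGP1 included, were 1.32, -0.27, 0.25 and 3.10. Heifer 4 was high in both, whereas heifer 1 was high in the cilia list alone. The part of that list in these values was not tested.

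The related ADAM and ADAMTS proteases had 12 of 26 genes measured, with 7 higher, 5 lower, 0 called and a median of 0.10 at 8 months, against 0.01 over all genes. ADAM19 had the smallest adjusted p there at -1.46 (0.0791 in limma), below 0 in all 4 heifers. ADAM17, which sheds TNF and growth factor precursors and is a target of TIMP3, read -0.64 (adjusted p = 0.0827) at its brighter probe but 0.42 (adjusted p = 0.163) at another, so that its probes disagree in direction.

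The plasminogen system, which can activate several proenzymes, had 8 of 10 genes measured, with 5 higher, 3 lower, 0 called and a median of 0.51 at 8 months. S100A10, a plasminogen receptor subunit, stood at 0.93 (adjusted p = 0.0704 in limma) and SERPINF2, the plasmin inhibitor, at -1.16 (adjusted p = 0.174). Among regulators of metalloproteinases, 7 of 13 were measured, with 5 higher, 2 lower, 0 called and a median of 0.26. THBS1, the matrix glycoprotein thrombospondin-1, stood at 1.44 (adjusted p = 0.192), with 3.31, -1.24, 2.40 and 1.28 in heifers 1 to 4. TFPI2, a serine protease inhibitor, stood at 1.63 (adjusted p = 0.247). Heifer 2 was opposite to the others in THBS1, as in TIMP1.

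The matrix substrates were all measured, 15 of 15, with 7 higher, 8 lower, 0 called and a median of -0.20 at 8 months. LAMB2, a laminin chain of basement membranes, stood at 0.72 (adjusted p = 0.0889 in limma) and HSPG2, which encodes perlecan, at -1.27 (adjusted p = 0.160). At 11 months the medians of these 5 lists were 0.21, -0.01, -0.19, 0.11 and -0.01 in the order given, with 0 called in each.

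**Figure D5:**
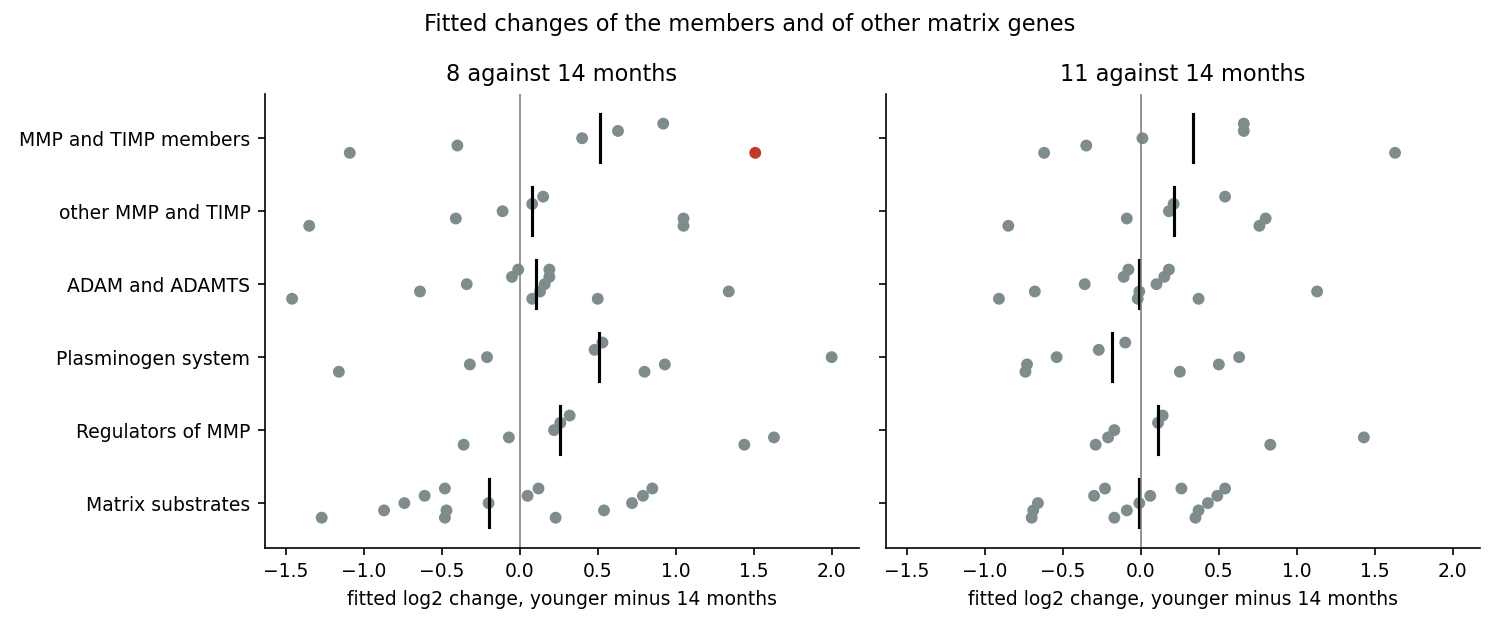
Fitted log2 changes of each measured gene in the MMP and TIMP members and in 5 lists of other matrix genes, with a black mark at the median of each list, for 8 months (left) and 11 months (right) against 14 months, and a red point for a gene that passed the test. The members' median is 0.52 at 8 months and that of the matrix substrates -0.20, and among all these genes MMP14 alone passed the test.

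Among 10200 other genes, LAMP1, a lysosomal membrane glycoprotein, had log2 ratios nearest to those of MMP14 over the 8 arrays, with a root mean square difference of 0.31. BOK, a member of the BCL2 family, followed at 0.33 and APOA1, an apolipoprotein of high-density lipoprotein, at 0.40. LAMP1 ranged from 1.07 to 1.64 at 8 months and from -0.11 to 1.22 at 11 months. The 8-month change was 1.36 for LAMP1 (adjusted p = 0.0130 in limma), 1.34 for BOK (adjusted p = 0.0467) and 1.36 for APOA1 (adjusted p = 0.0616). These genes were picked for their likeness, so their changes add no separate evidence.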

How the data were processed

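Transcripts were measured on 8 dual-colour bovine arrays from 4 heifers. Per the file headers, the deposited scanner tables hold median and mean spot intensity and local background in both channels, without normalization. The authors also deposited a table of log2 ratios. It followed Cy5 over Cy3 of background-subtracted, loess-normalized intensities with correlations from 0.999 to 1 and column medians from -0.0207 to 0.0008, which gave its scale, centring and direction. How the authors normalized was not given in the sources used here.

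Median intensities were corrected with normexp (offset 50), normalized by loess within each array with limma 3.58.1 in R 4.3.3, and turned to younger minus 14 months. Control spots and 22 to 59 spots per array that the files mark as ignored were left out. Probes were kept where they exceeded the mean of 153 negative controls by 2 SD in 3 or 4 of the heifers at any age. A model with 8 months, 11 months and dye as terms and the heifer as a random block (correlation 0.159) was fitted to all kept probes, with Benjamini-Hochberg adjustment and a threshold of 0.05. Precision is limited by the number of arrays (5 residual degrees of freedom). The same animals are named in both comparisons by the labels, which pairs the arrays. Deviations of their arrays correlated at 0.379, 0.276, 0.447 and -0.109. Arrays of a heifer share its 14-month age and dye orientation, which can raise these values, so they do not test the pairing. Levels are loess values scaled between arrays (Aquantile). The offset shrinks the ratios of dim probes.

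Symbols came from the platform annotation. Among 43794 probes, 21790 carried 1 symbol, 0 several and 22004 none, and 21549 matched the ARS-UCD2.0 gene table. The brightest kept probe stood for a gene. All 7 members are named, as are the 2 genes with the smallest p in each of the 5 lists of matrix genes, any gene called in those lists and the 3 genes nearest to a called member. Single marker genes, and undetected genes of the lists, were picked for naming after their values were seen. The members, lists and settings were chosen with earlier results of these data known. Alternatives covered the block, dye term, arrays, intensity, background, normalization, weights, filter, deposited ratios and omitted heifers. The fit was tested on simulated data.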

Additional observations from a re-analysis of the deposited data

Results flagged for a closer look

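The MMP2 level of heifer 1 at 14 months, 9.05 on the log2 scale, stood far from the other heifers, which lay between 11.20 and 11.29. Its gap was 0.959 of the range of the 4 values, above Dixon's 95% critical value.

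The log2 ratio of TIMP1 (brighter probe) at 11 over 14 months in heifer 1, -0.44, stood apart from 2.11 to 2.49 in the other heifers, with a gap of 0.871 of the range. Chance alone flags about 1 in 20 such groups, and 2 of 35 groups stood apart in this way.

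The MMP9 changes at 8 and at 11 months against 14 months had opposite signs in every heifer, although at 11 months only heifer 2 was above background in both channels. Their difference of 1.26 had an unadjusted p of 0.00223 and an adjusted p of 0.727 in limma. Both changes share the 14-month age.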

How the results depend on the processing

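Of the 7 member probes, 1 was called at 8 against 14 months, against 2 with only the arrays of this comparison (MMP2 and MMP14), 0 with mean intensities, 2 with median centring (MMP9 and MMP14), 3 with array weights (MMP2, MMP9 and MMP14), and 0 to 2 when a heifer was left out (0 without heifer 3 or heifer 4, and 2, MMP11 and MMP14, without heifer 2). Over all probes, 877 calls became 3233, 1716 and 3558 with only these arrays, median centring and array weights, and 0 to 1702 without a heifer (0 without heifer 3, 36 without heifer 4 and 1702 without heifer 2). In the contrast of 8 with 11 months, array weights called 1 probe. No member was called at 11 months or between 8 and 11 months in any setting run. Leaving out the heifer as a block dropped only the link between the arrays of a heifer, as each ratio is already within an animal. MMP14 then stayed at 1.51 (adjusted p = 0.0189 in limma), 989 probes were called and no member call changed.

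Some changes that were not called turned sign. TIMP1 at 8 months went to -0.25 and -0.73 (brighter and dimmer probe) without heifer 1. The highest values without another heifer were 0.82 and 1.09. Without the 8-month arrays of heifers 1 and 2 the probes were fitted at -0.30 and -0.25. The remaining 8-month ratios were nevertheless above 0, at 0.28 and 0.32 (brighter) and 0.45 and 0.79 (dimmer). That fit takes its dye term from the 11-month arrays alone, where heifer and dye cannot be told apart, so its signs carry no direction. TIMP2 at 11 months went to -0.08 with mean intensities, -0.14 without heifer 2 and -0.17 without heifer 3, against up to 0.21 without another heifer. Between 8 and 11 months, MMP2 went to 0.13 without the 11-month arrays of heifers 1 and 4. MMP11 there went to 0.03 with median centring, 0.23 with array weights and 0.60 without heifer 2 (lowest value without a heifer -0.28). It went to 0.61 without the 8-month arrays of heifers 1 and 2, with the same limit of the dye term. The cause of the other sign changes was not tested. Signal close to background limits MMP14 at 14 months, MMP9 at 11 and 14 months and TIMP3 at every age. It also limits the dimmer TIMP1 probe at 14 months, where 5 of 8 channels exceeded the limit. The same holds for MMP11 of heifer 1 at 14 months and MMP14 of heifer 3 at 11 months.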
